A study of Mus musculus with 6 samples.

Results

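Potassium channel subunit genes were examined in the hippocampus of male mice with and without a deletion of Trpc4, a gene for a receptor-operated cation channel. A list of 41 subunit genes was set against the array, and a gene counted as measured where a probe set named it alone. This held for 40 of the 41 genes, out of 22180 genes measured in all, and each gene is given by its probe set of highest mean signal. The exception was Kcnk3, whose name appeared only together with that of a second gene. All 6 samples came from hippocampus at postnatal day 56, with C57BL/6J as the strain background, and each was put on 1 array. The 3 control samples were Trpc4 wild type and the 3 others carried the Trpc4 knock out. The labels give neither the extent of the deletion nor whether it was confined to some cells, and they do not say that each replicate was a separate animal.

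Potassium channels let potassium leave the cell and so set the resting potential of a neuron, end its action potentials and space its spikes. Voltage-gated channels are assembled from several pore subunits, often mixed within a subfamily, with auxiliary subunits that change their gating and traffic. Inward rectifiers and tandem-pore channels act near rest, while BK, SK and sodium-activated channels open on calcium or sodium that enters during spiking. Hippocampal principal cells are known for a dendritic A-type current carried by Kv4, a muscarine-sensitive M-current carried by KCNQ channels, and an inward rectifier current driven by G proteins.

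The arrays were alike in their distributions, with medians between 4.73 and 4.75 on the log2 scale and Pearson's r of 0.985 to 0.988 between any pair over all probe sets. The Trpc4 signal was 8.06, 8.23 and 8.06 in wild-type replicates 1 to 3 and 7.39, 7.55 and 7.31 in knockout replicates 1 to 3. All knockout samples thus lay below all wild-type samples, by 0.70 on average (SE 0.09, unadjusted limma p 8.9e-05, adjusted p 0.738). Where the probes lie relative to the deletion was not examined here. Defining markers of pyramidal and granule neurons were strong in every sample, with a mean signal over 8 of 10 listed genes of 10.44 to 10.54 in wild type and 10.53 to 10.55 in knockout. Markers of oligodendrocytes, which myelinate axons, were lower in knockout for 13 of 13 measured genes of the 15 listed. Their mean signal was 8.49 to 8.60 in wild type and 7.76 to 8.39 in knockout, and the dimmest of them still had a mean signal of 6.44. Interneuron markers were lower for 9 of 10 genes, at 7.82 to 7.85 against 7.73 to 7.78, and dentate granule cell markers were higher for 9 of 10, at 6.85 to 7.06 against 6.97 to 7.20. Markers of CA1 pyramidal cells were higher for 3 and lower for 3 of 6 measured genes. Those of CA3 were higher for 5 and lower for 3 of 8. Choroid plexus markers were lower for 7 of 9 measured genes, at 4.58 to 4.64 against 4.37 to 4.58, on dim signals for 6 of the 9. Thalamus and habenula markers were lower for 6 of 10, at 5.96 to 6.13 against 5.87 to 5.98. Among them Zic1 differed by -0.96, and the median difference over the list was -0.02. The part of these differences in the channel values was not tested. In bulk tissue fewer cells of a type, less RNA per cell and a difference in dissection cannot be told apart.

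In wild-type hippocampus 39 of the 40 subunit genes had a mean signal above 4.72, the median over all probe sets. Probe sets differ in how brightly they report a transcript, so signals are given per gene and the genes are not ranked against each other. The exception was Kcna5, a Kv1 subunit better known from heart and smooth muscle, at 3.80 ± 0.27 (SD, n = 3). Replicates of the subunit genes lay close together. The median residual SD of a member was 0.08, against 0.12 over all genes and 0.10 over genes with a signal above that median. Wild-type signals of Kcnd3 differed by 0.04 between the lowest and the highest sample and those of Kcnq5 by 0.04, whereas those of Kcnip3 differed by 0.59 and those of Kcna5 by 0.48.

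**Figure D1:**
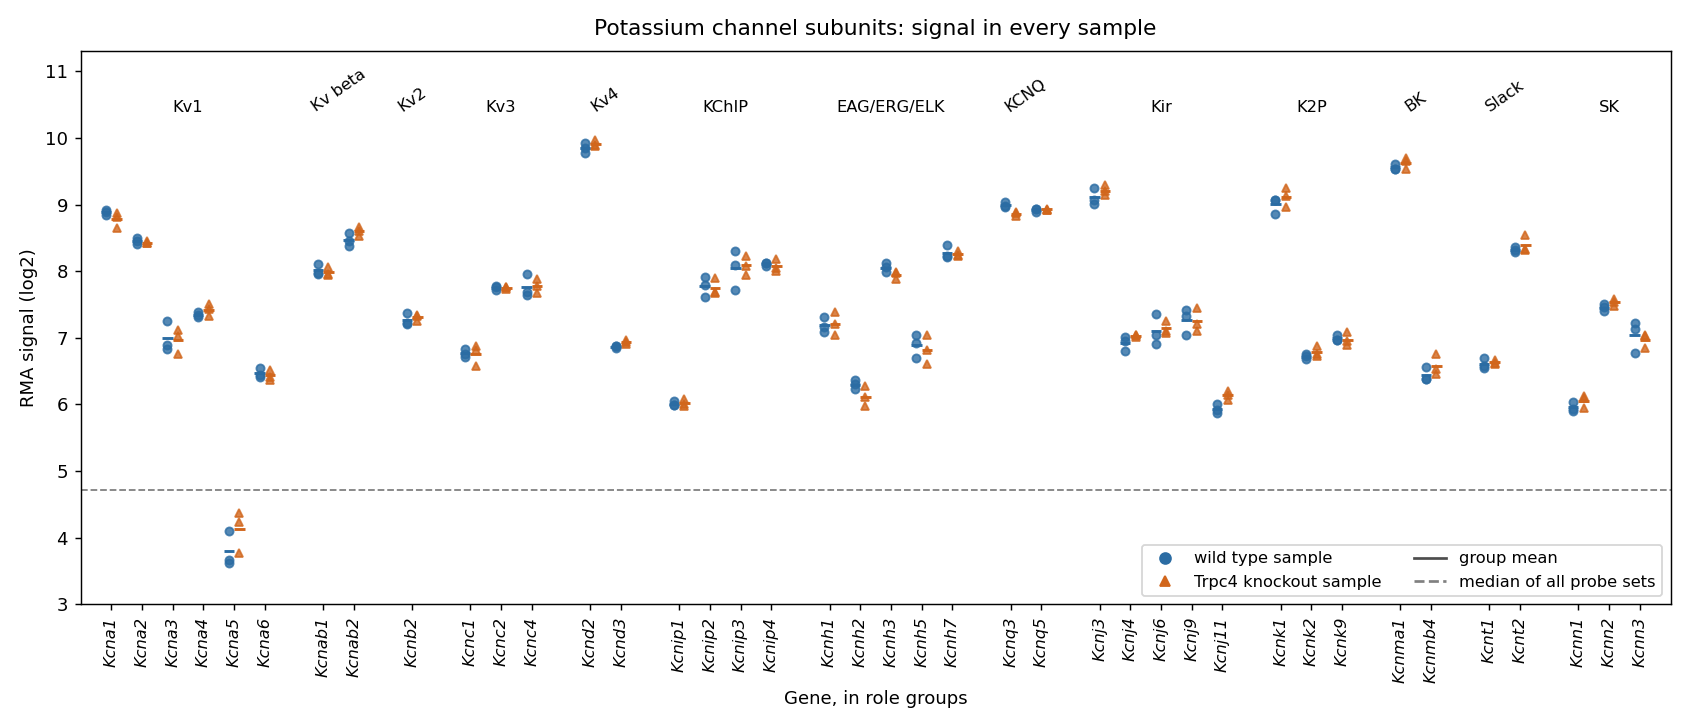
RMA signal (log2) of the 40 measured potassium channel subunit genes in every sample, grouped by subfamily; circles are wild-type samples, triangles Trpc4 knockout samples, bars group means, and the dashed line is the median of all probe sets, 4.72. The symbols of both genotypes fall on each other for most genes, and Kcna5 is the one gene below the line.

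Deletion of Trpc4 was compared with wild type for each subunit gene. Of the 40 genes, 0 passed limma's test at an adjusted p of 0.05, as did 0.00% of all genes tested. Trpc4 itself did not pass, at an adjusted limma p of 0.738, so a count of 0 does not show that genes were unchanged. Signals were higher in knockout for 23 genes and lower for 17, with a median difference of 0.02 against 0.01 over all genes. The median absolute difference was 0.07, against 0.08 over all genes. At an unadjusted limma p under 0.05 there was 1 subunit gene of 40, the ATP-sensitive channel subunit Kcnj11, while 5.75% of all genes reached that level (3.16% higher and 2.59% lower in knockout). An unadjusted p under 0.01 was reached by 0 subunit genes and by 1.12% of all genes. The 3 knockout values lay above all wild-type values for Kcnj11, Kcnj4 and Kcnd3 and below them for Kcnq3 and Kcnh3. Among all genes, 6.41% were separated upwards and 4.45% downwards, which makes 10.9% together, so 5 of 40 is near the background share.

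The intervals bounded the differences as follows. The 95% interval of the difference lay within 1.5-fold in either direction for 39 of 40 subunit genes, Kcna5 being the exception, against 91.7% of all genes and 96.6% of genes with a signal above the median. It lay within 1.2-fold for 18 of 40, against 27.8% of all genes and 39.3% of genes with a signal above the median. Standard errors ran from 0.07 to 0.19, with a median of 0.08.

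**Figure D2:**
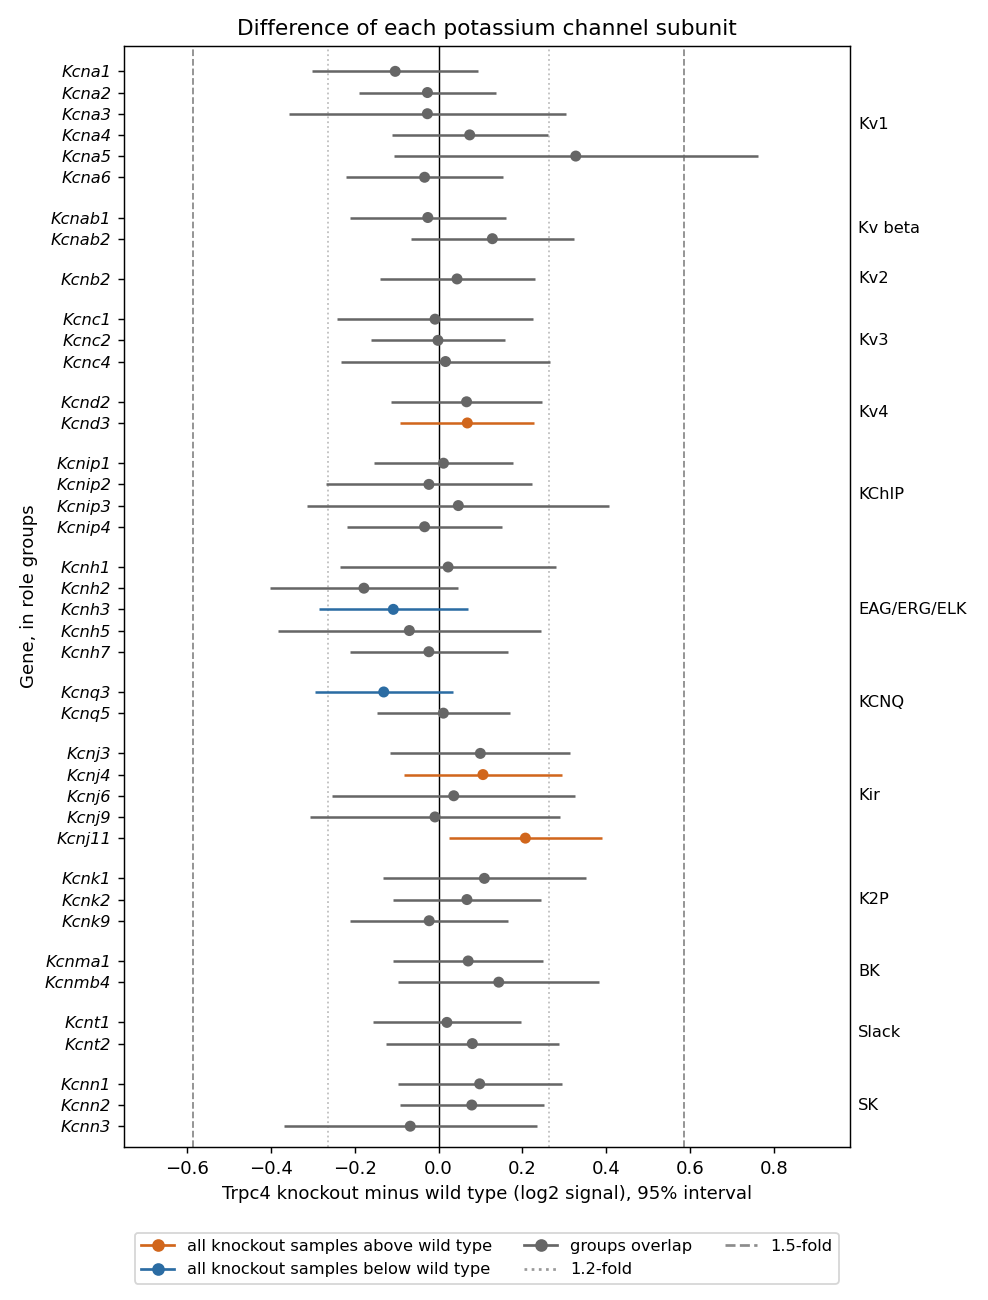
Trpc4 knockout minus wild type (log2 signal) for each subunit gene, with its 95% limma interval; dotted lines mark 1.2-fold and dashed lines 1.5-fold differences, and colours mark genes whose 3 knockout samples lie wholly above or below the wild-type samples. Of the 40 intervals, 39 stay inside the dashed lines, Kcna5 reaches beyond the right one, and that of Kcnj11 alone leaves out 0.

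The Kv1 subfamily, whose low-threshold channels sit on axons and terminals and restrain firing, showed small differences in both directions. Kcna1, whose loss causes epilepsy in mice, had signals of 8.84, 8.92 and 8.89 in wild-type replicates 1 to 3 and of 8.87, 8.82 and 8.65 in knockout replicates 1 to 3. The groups overlapped and knockout replicate 3 was the lowest. The difference was -0.10 (SE 0.08, 95% interval -0.30 to 0.09, adjusted limma p 0.912), and it was -0.04 without that sample. Kcna2, its usual axonal partner, stood at 8.45 ± 0.05 in the wild-type and 8.43 ± 0.02 in the knockout samples (SD, n = 3 per genotype), and its interval of -0.19 to 0.14 stayed within 1.2-fold. Kcna4, the A-type member of the subfamily, differed by 0.07 (interval -0.11 to 0.26) and Kcna6 by -0.03 (interval -0.22 to 0.15). Kcna3, best known from lymphocytes and microglia, varied more between samples, from 6.82 to 7.25 in wild type and from 6.75 to 7.12 in knockout. Kcna5 gave the largest difference of the 40 genes, but on a dim signal. Its values were 3.66, 4.10 and 3.62 in wild type and 4.37, 4.24 and 3.76 in knockout, so that the groups overlapped. The difference of 0.33 (SE 0.19, interval -0.11 to 0.76, adjusted limma p 0.878) ranged from 0.21 without knockout replicate 1 to 0.51 without knockout replicate 3.

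The Kv beta subunits are cytoplasmic partners of Kv1 channels, and Kcnab1 can add fast inactivation to them. Kcnab1 stood at 8.01 ± 0.08 in the wild-type and 7.98 ± 0.06 in the knockout samples (SD, n = 3 per genotype). Kcnab2 had signals of 8.57, 8.46 and 8.38 in wild type and of 8.53, 8.66 and 8.61 in knockout. Of the knockout samples, replicates 2 and 3 lay above every wild-type sample and replicate 1 did not. The difference was 0.13 (SE 0.08, interval -0.07 to 0.32, adjusted limma p 0.897), and it was 0.082 without wild-type replicate 3. Kcnb2, a Kv2 delayed rectifier subunit, read 7.20, 7.23 and 7.37 in wild type and 7.25, 7.34 and 7.33 in knockout. All of its knockout values lay inside the wild-type range, and the difference was 0.04 (SE 0.08, interval -0.14 to 0.23). It was 0.013 without wild-type replicate 1 and 0.094 without wild-type replicate 3.

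Kv3 channels open at positive potentials and close fast, and are known for the brief spikes of fast-spiking interneurons. The 3 measured Kv3 genes gave the smallest differences of any subfamily of 3 or more genes. Kcnc1 read 6.75, 6.84 and 6.71 in wild type and 6.88, 6.82 and 6.57 in knockout, where the highest and the lowest of the 6 values both came from knockout samples. The difference was -0.0083 (SE 0.10, interval -0.24 to 0.22). Kcnc4, whose channels inactivate, read 7.64, 7.68 and 7.95 in wild type and 7.88, 7.67 and 7.78 in knockout, a difference of 0.02 (SE 0.11, interval -0.23 to 0.27). The signs of both differences depended on single samples. Kcnc1 was 0.08 without knockout replicate 3 and -0.07 with knockout replicate 1 left out, and Kcnc4 was -0.04 without wild-type replicate 1 and 0.11 without wild-type replicate 3. Kcnc2, found in many parvalbumin interneurons, differed by -0.0013 with an interval of -0.16 to 0.16. Interneuron markers, as given above, had lower knockout values for 9 of 10 genes, and 0 had an unadjusted limma p under 0.05. The Kv3 differences lay on either side of 0, and a link was not tested.

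Both listed Kv4 genes were slightly higher in knockout, and Kcnd1, the Kv4 gene outside the list, differed by 0.06 (SE 0.09). Kcnd2, the main subunit of the dendritic A-type current in pyramidal cells, stood at 9.85 ± 0.07 in the wild-type and 9.91 ± 0.05 in the knockout samples (SD, n = 3 per genotype). Kcnd3, which is common in interneurons and some principal cells, read 6.87, 6.88 and 6.84 in wild type and 6.93, 6.97 and 6.91 in knockout. The groups did not overlap, yet they were 0.025 apart at their nearest. The difference was 0.07 (SE 0.07, interval -0.09 to 0.23, adjusted limma p 0.930). An exact two-sided permutation test gave 0.1, below which 3 against 3 samples cannot go.

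KChIP proteins bind calcium and bring Kv4 channels to the surface, and their 4 genes differed by -0.03 to 0.05. Kcnip4 read 8.11, 8.13 and 8.07 in wild type and 8.04, 8.18 and 8.0 in knockout. Its wild-type samples lay inside the range of the knockout samples, and the difference was -0.03 (SE 0.08, interval -0.22 to 0.15), or 0.0052 without knockout replicate 3 and -0.087 without knockout replicate 2. Kcnip3, also known as the transcriptional repressor DREAM, was the most variable of the 40 genes within wild type. It read 7.72, 8.09 and 8.31 there and 7.95, 8.23 and 8.08 in knockout, where wild-type replicate 1 was the lowest and wild-type replicate 3 the highest of all 6. The difference of 0.05 (SE 0.15, interval -0.31 to 0.41) became -0.11 without wild-type replicate 1 and 0.18 without wild-type replicate 3. Kcnip1, typical of interneurons, differed by 0.01 and Kcnip2 by -0.02.

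Of the 5 listed genes of the EAG, ERG and ELK channel family, 4 were lower in knockout. Among all 22180 genes 9994 were lower, and the median over the 5 was -0.07. Outside the list, Kcnh4 differed by 0.14, Kcnh6 by -0.02 and Kcnh8 by -0.36. Kcnh2, the ERG subunit known from cardiac repolarisation, read 6.22, 6.36 and 6.30 in wild type and 6.27, 5.98 and 6.10 in knockout. Knockout replicates 2 and 3 lay below all wild-type samples and replicate 1 lay among them. The difference was -0.18 (SE 0.10, interval -0.40 to 0.05, adjusted limma p 0.874), with a range from -0.26 without knockout replicate 1 to -0.11 without knockout replicate 2. Kcnh3, an ELK subunit of forebrain neurons whose loss raises excitability in mice, read 8.12, 7.99 and 8.06 in wild type and 7.98, 7.98 and 7.88 in knockout. Its groups were separated by a margin of only 0.0048. The difference was -0.11 (SE 0.08, interval -0.28 to 0.07, adjusted limma p 0.897). The EAG genes Kcnh1 and Kcnh5 differed by 0.02 and -0.07, and the ERG gene Kcnh7 by -0.02, each with overlapping groups.

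KCNQ channels carry the M-current, which closes when receptors coupled to Gq are active. Kcnq3 read 9.04, 8.96 and 8.98 in wild type and 8.82, 8.88 and 8.89 in knockout, and all 3 knockout samples were the lower ones. The difference was -0.13 (SE 0.07, interval -0.29 to 0.03, adjusted limma p 0.874), which puts knockout at 91.3% of wild type. Leaving out single samples moved it between -0.15 and -0.11. Kcnq5, a further M-channel subunit, stood at 8.92 ± 0.02 in the wild-type and 8.93 ± 0.01 in the knockout samples (SD, n = 3 per genotype), the tightest values of the 40 genes in knockout, and its interval ran from -0.15 to 0.17. Whether these differences differ from each other was not tested.

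Of the 5 listed inward rectifier genes, 4 were higher in knockout, beside 54.9% of all genes. The median difference over the 5 was 0.10, the value of Kcnj3, whose second probe set gave -0.08. Inward rectifier genes outside the list differed in both directions, from -0.23 for Kcnj8 to 0.28 for Kcnj12. Kcnj11 encodes the pore of the ATP-sensitive channel, which links metabolism to excitability. Its signals were 5.87, 6.01 and 5.91 in wild type and 6.20, 6.14 and 6.06 in knockout, with every knockout sample above every wild-type sample. The difference was 0.21 (SE 0.08, interval 0.02 to 0.39), a knockout signal of 115% of wild type. Its unadjusted limma p was 0.0315 and its adjusted p 0.853, and the exact permutation test again gave 0.1. Leaving out single samples moved the difference between 0.17 and 0.25 and the unadjusted limma p between 0.0292 and 0.0950. Abcc8, the sulfonylurea receptor that surrounds this pore in neurons, differed by -0.06 (SE 0.08, interval -0.25 to 0.12), and by -0.021 without wild-type replicate 1 and -0.10 without wild-type replicate 2.

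Kcnj4, a strong inward rectifier of forebrain neurons, read 7.01, 6.80 and 6.96 in wild type and 7.04, 7.01 and 7.04 in knockout. Its groups did not overlap, but wild-type replicate 1 came close to the knockout values and wild-type replicate 2 lay apart below. The difference was 0.11 (SE 0.08, interval -0.08 to 0.29, adjusted limma p 0.907), and it was 0.05 without wild-type replicate 2. The subunits of the G-protein-gated channel, Kcnj3, Kcnj6 and Kcnj9, which combine with each other, differed by 0.10, 0.04 and -0.0085. All 3 had overlapping groups, and the interval of Kcnj3 ran from -0.11 to 0.31.

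**Figure D3:**
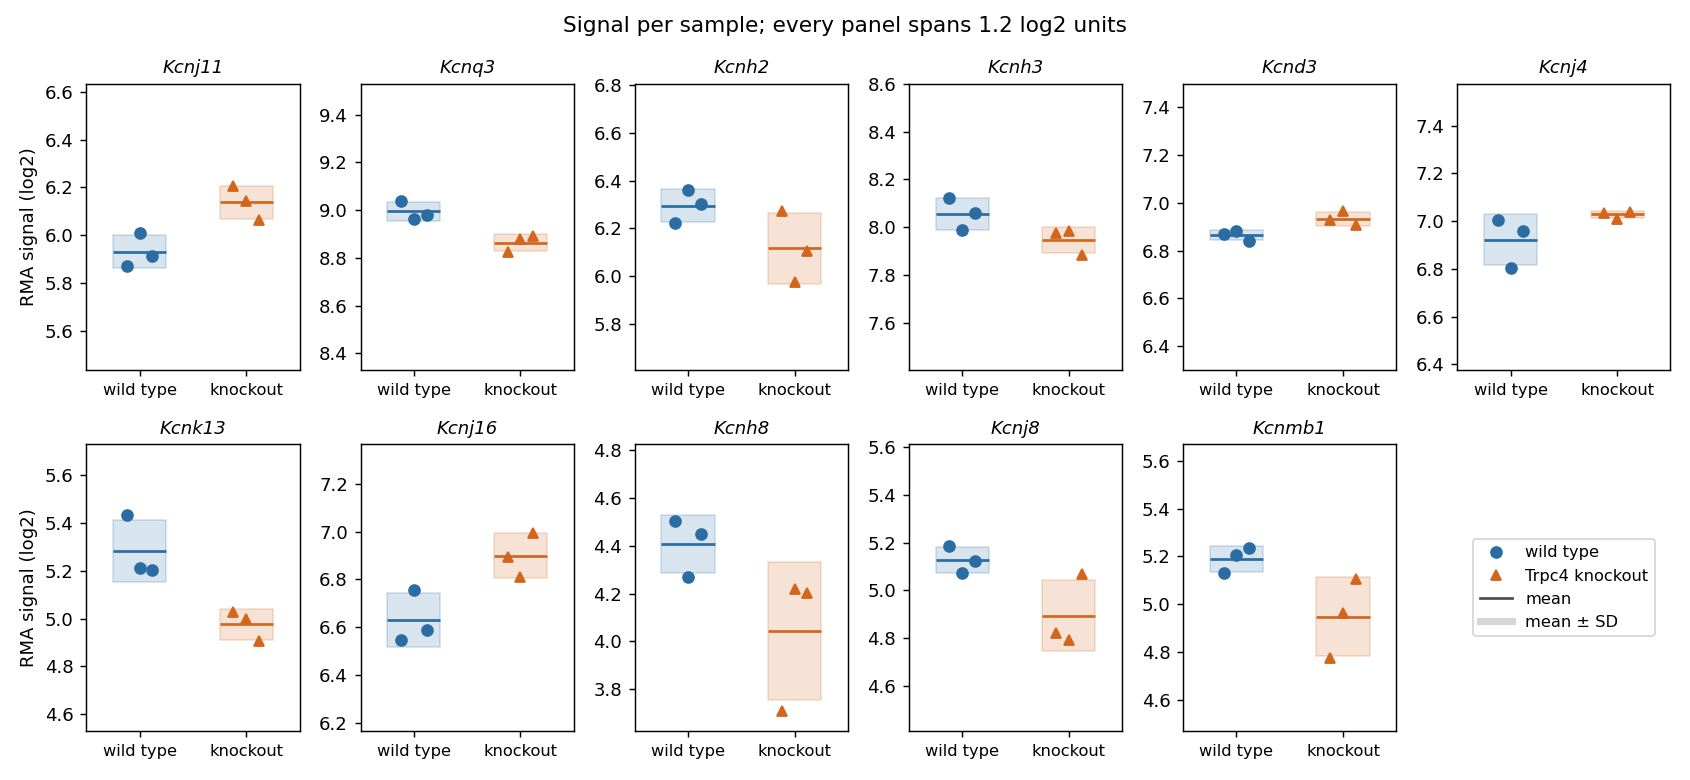
RMA signal (log2) per sample for 6 members of the subunit list (top row) and for the 5 other potassium channel genes of smallest p (bottom row); lines are means, shaded boxes mean ± SD, and every panel spans the same height. The groups do not touch for Kcnj11 and Kcnq3, nearly touch for Kcnh3 and Kcnj4, and overlap for Kcnh2.

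Tandem-pore channels give the leak current that holds the resting potential. Of the 3 listed genes that were measured, 2 were higher in knockout, beside 54.9% of all genes. Tandem-pore genes outside the list differed in both directions, from -0.31 for Kcnk13 to 0.29 for Kcnk16. Kcnk1, a TWIK subunit, read 9.07, 8.86 and 9.07 in wild type and 9.25, 9.13 and 8.96 in knockout. The groups overlapped through knockout replicate 3. The difference was 0.11 (SE 0.10, interval -0.13 to 0.35, adjusted limma p 0.928), and it was 0.04 without wild-type replicate 2 and 0.19 without knockout replicate 3. Kcnk2, the mechanically and lipid-gated TREK subunit, read 6.75, 6.73 and 6.67 in wild type and 6.72, 6.87 and 6.76 in knockout. Its difference of 0.07 (SE 0.08, interval -0.11 to 0.24) was 0.025 without knockout replicate 2. Kcnk9, an acid-sensitive TASK subunit, differed by -0.02 with an interval of -0.21 to 0.17.

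Of the listed genes, 2 of 2 BK, 2 of 2 sodium-activated and 2 of 3 SK genes were higher in knockout, beside 54.9% of all genes. None passed the threshold, and the groups overlapped for each of them. Of the BK beta subunit genes outside the list, Kcnmb1 differed by -0.24, Kcnmb2 by 0.03 and Kcnmb3 by 0.04. Kcnma1, the pore of the BK channel that opens on calcium and depolarisation together, stood at 9.56 ± 0.04 in the wild-type and 9.63 ± 0.08 in the knockout samples (SD, n = 3 per genotype). Its neuronal beta subunit Kcnmb4 read 6.56, 6.37 and 6.37 in wild type and 6.46, 6.75 and 6.53 in knockout. Knockout replicate 2 was the highest, and the difference of 0.14 (SE 0.10, interval -0.10 to 0.38, adjusted limma p 0.898) fell to 0.06 without it. Of the sodium-activated subunits, Kcnt1 differed by 0.02 (interval -0.16 to 0.20). Kcnt2 read 8.36, 8.28 and 8.31 in wild type and 8.33, 8.55 and 8.31 in knockout, where the difference of 0.08 (SE 0.09) came to 0.0049 without knockout replicate 2 and to 0.12 without replicate 3.

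SK channels sense calcium through bound calmodulin and carry part of the afterhyperpolarisation. Kcnn1 read 5.93, 5.89 and 6.04 in wild type and 6.12, 6.09 and 5.95 in knockout, with knockout replicate 3 among the wild-type values. The difference was 0.10 (SE 0.08, interval -0.10 to 0.29, adjusted limma p 0.914), and it was 0.15 without that sample. Kcnn2, the SK subunit found in spines of CA1 pyramidal cells, read 7.50, 7.46 and 7.40 in wild type and 7.59, 7.53 and 7.48 in knockout. Only knockout replicate 3 overlapped with wild type, and the difference was 0.08 (SE 0.07, interval -0.09 to 0.25, adjusted limma p 0.925), or 0.051 without wild-type replicate 3. Kcnn3 differed by -0.07 on a wild-type range of 6.77 to 7.22.

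**Figure D4:**
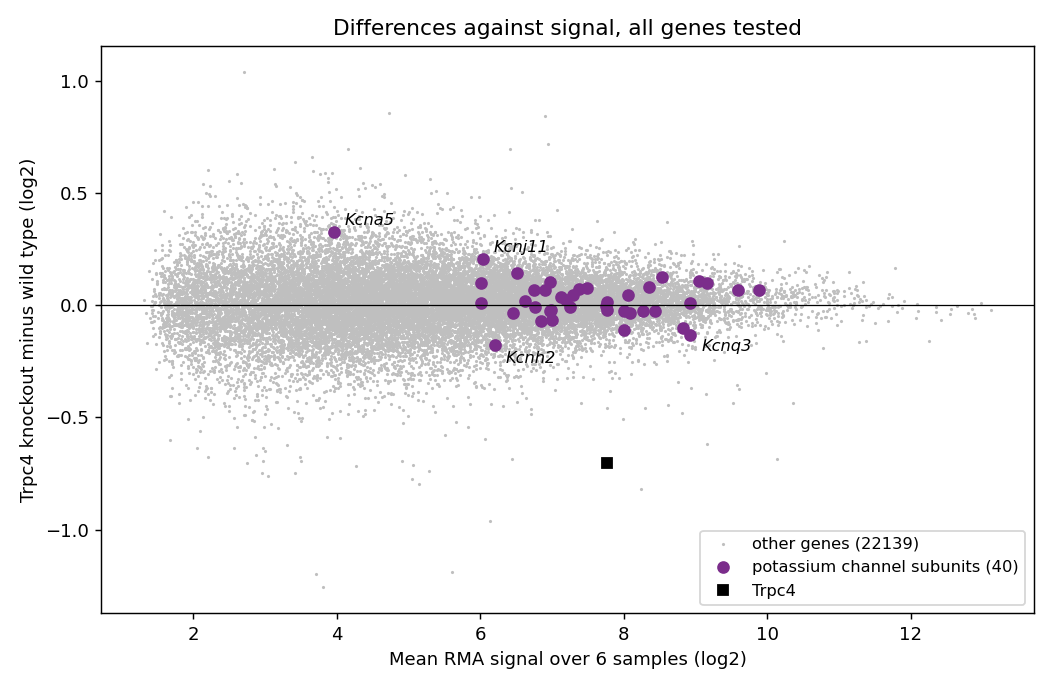
Trpc4 knockout minus wild type (log2) against mean RMA signal over the 6 samples (log2) for every gene tested; purple circles are the potassium channel subunit genes, the black square is Trpc4 and grey points are the other genes. The purple circles lie within the grey cloud between -0.18 and 0.33, and Trpc4 lies at -0.70, with some grey points lower still.

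The arrays were also compared by how often each held the extreme value of a subunit gene. Knockout replicate 1 held the highest value for 11 of 40 genes and wild-type replicate 1 the lowest for 11, against 18.9% and 17.9% of all genes for these arrays. Median deviations of the 40 genes from their own means ran from -0.02 in wild-type replicate 2 to 0.04 in knockout replicate 2.

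A second probe set was present for 6 of the 40 genes, and it gave the other sign for 4 of them. For Kcna4 the brighter probe set differed by 0.07 and the other by -0.03, for Kcnj3 the values were 0.10 and -0.08, and for Kcna6 they were -0.03 and 0.14. For Kcnq5 the values were 0.01 and -0.15, with wild-type signals of 8.92 and 4.51. Kcnma1 (0.07 and 0.18) and Kcnmb4 (0.14 and 0.07) kept one sign. Their second probe sets were also dimmer, with wild-type signals of 9.56 and 3.85 for Kcnma1 and of 6.43 and 4.95 for Kcnmb4. All of these differences had a limma p above the unadjusted threshold of 0.05.

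Of the subunit genes, 6 share the chromosome of Trpc4, where DNA of a targeted strain can remain beside a knockout allele. In the RefSeq table of mouse genes, Kcnab1 was the nearest on chromosome 3, with 62 protein-coding genes between it and Trpc4, and it differed by -0.03. The others, Kcnn3, Kcnd3, Kcna3, Kcna2 and Kcnc4, differed by -0.07 to 0.07.

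Potassium channel genes outside the list of 41 were taken from a list of 52, of which 47 were measured and 28 had a mean signal above the median probe set. Knockout exceeded wild type for 26 of the 47 and fell short of it for 21, the median difference being 0.03, and 0 passed the adjusted threshold. At an unadjusted limma p under 0.05 there were 5, that is 1 higher and 4 lower, beside the 5.75% of all genes. Groups did not overlap for 3 of the 47 upwards and 4 downwards, beside 6.41% and 4.45% of all genes. Kcnj16, an inward rectifier of astrocytes, read 6.55, 6.76 and 6.59 in wild type and 6.89, 6.81 and 7.0 in knockout, a difference of 0.27 (SE 0.09, adjusted limma p 0.849). All knockout samples were the higher ones. Astrocyte markers were higher for 5 and lower for 5 of 10 genes, at 8.29 to 8.34 in wild type and 8.24 to 8.38 in knockout.

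Kcnk13, a tandem-pore channel known from microglia, read 5.43, 5.21 and 5.20 in wild type and 5.03, 5.0 and 4.90 in knockout. All knockout samples were the lower ones, with a difference of -0.31 (SE 0.09, adjusted limma p 0.849). Microglia markers were lower for 5 of 9 measured genes, at 6.48 to 6.52 in wild type and 6.46 to 6.57 in knockout. The vascular subunit genes Kcnj8, of the ATP-sensitive channel of pericytes and smooth muscle, and Kcnmb1, the smooth muscle BK beta subunit, differed by -0.23 (SE 0.09) and -0.24 (SE 0.10). Both had groups that did not overlap, on mean signals of 5.01 and 5.07. The highest knockout value was 5.0672 for Kcnj8 and 5.1064 for Kcnmb1, against lowest wild-type values of 5.0743 and 5.1286. Without knockout replicate 1 Kcnmb1 differed by -0.16. No list of pericyte or smooth muscle markers was examined. Endothelial markers were lower for 8 of 10 genes, 1 of them at an unadjusted limma p under 0.05. Their mean signal was 5.74 to 5.98 in wild type and 5.74 to 5.85 in knockout. A part of such markers in the values of Kcnj8 and Kcnmb1 was not tested. Kcnh8, an ELK subunit, differed by -0.36 (SE 0.15) on a signal below the median probe set, and by -0.20 without knockout replicate 1.

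Partner proteins of potassium channels were taken from a list of 13 genes, all measured, with 8 above and 5 below wild type and a median difference of 0.01. None passed the adjusted limma threshold, and 0 had an unadjusted p under 0.05. Dpp6, which speeds Kv4 gating in dendrites, differed by 0.08 (SE 0.07), and its relative Dpp10 by -0.19 (SE 0.12). The value for Dpp10 was -0.31 without wild-type replicate 1 and -0.10 without wild-type replicate 3. Cntn2, an adhesion protein that holds Kv1 channels beside the node of Ranvier, read 7.70, 7.56 and 7.64 in wild type and 7.51, 7.30 and 7.64 in knockout. Its lowest sample, knockout replicate 2, was also the lowest for oligodendrocyte markers, at a mean of 7.76, and a link was not tested. The difference was -0.15 (SE 0.10), and it was -0.06 without that sample and -0.23 without knockout replicate 3. Lrrc52, a BK gamma relative with a dim signal, differed by -0.32 (SE 0.20), with -0.16 when knockout replicate 2 was left out and -0.55 when knockout replicate 3 was.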

How the data were processed

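RNA from hippocampus was purified with Trizol, labelled with biotin and hybridised, per the labels' protocols. The authors deposited log2 expression values of 6 arrays. The submitters' processing notes name RMA and Affymetrix Power Tools. The sources used here state neither versions nor genome build nor array annotation. RMA in general equalises the arrays' distributions, which would hide a shift common to most genes.

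Of 41345 probe sets, 23521 named 1 gene in the platform annotation, which can be old, 1814 several and 16010 none. The probe set of highest mean signal stood for its gene. Genotype was fitted with limma 3.58.1 (lmFit, eBayes) in R 4.3.3 over all 22180 genes, with Benjamini-Hochberg adjustment. This procedure was run on simulated data whose differences were larger than any of the subunit genes, so it does not bear on differences of their size. Intervals of the fit are at 95%. Precision is limited by the number of arrays, and p-values reflect the spread between samples, possibly a technical one. Chromosome order came from RefSeq, assembly GRCm38.p6, where all 40 genes were found. Figures used matplotlib 3.10.9.

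Members, lists and tests were chosen with earlier results of these data known. Every member was named. Values per sample were given for members whose groups do not overlap and for the 2 of smallest p per role group (1 in groups of 1 or 2), and the 5 of smallest p were named in each list of other genes. Alternative settings were a replicate block, quantile normalization, trend and robust variance, median centring, array weights, a signal filter, probe set means, all probe sets, a stricter p and leaving out each sample.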

Additional observations from a re-analysis of the deposited data

How the results depend on the processing

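The count of 0 subunit genes at the adjusted threshold held under all 14 alternatives, with a lowest adjusted p of 0.705 among subunit genes. Over all genes the count of 0 became 1 (Trpc4, at an adjusted limma p of 0.0378) with trend and robust variance and was 0 to 1 without single samples (1 without knockout replicate 1, outside the subunit genes). The 1 subunit gene at an unadjusted p under 0.05 became 0 at a threshold of 0.01, 0 with the replicate block and 2 with trend and robust variance (Kcnj11 and Kcnq3), and 0 to 2 without single samples. It was 0 without wild-type replicate 1 or 3 or knockout replicate 2, 1 without knockout replicate 1 (Kcnh2), and 2 without wild-type replicate 2 or knockout replicate 3 (Kcna5 and Kcnj11). The same replicate numbers recur in both genotypes, but same-numbered samples deviated together with correlations of only 0.07, 0.03 and -0.0038 over genes, so the numbers were not taken as pairs. The median difference over subunit genes lay between 0.01 and 0.02 under the other settings and between 0.0067 and 0.04 without single samples. Leaving out 1 sample turned the sign of 4 to 9 of the 40 subunit genes (9 without wild-type replicate 2). Of the 20 with values given per sample, these were Kcnc4 (-0.042 to 0.113), Kcnc1 (-0.071 to 0.084), Kcnip4 (-0.087 to 0.0052) and Kcnip3 (-0.114 to 0.182), all near 0 in the full data. Quantile normalization and median centring turned the sign of 0 of the 40 genes, and the mean over the probe sets of a gene turned that of 2, Kcna6 and Kcnq5. No signal was set against a measured background, and Kcna5, below the median of all probe sets, is the member that a dim signal limits most.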
